A study of Mus musculus with 4 samples.

Results

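The C/EBP family of transcription factors and PU.1, the product of Spi1, were examined in lineage-negative mouse bone marrow with and without the corepressor gene Mtg16. The set was defined by gene name as Cebpa, Cebpb, Cebpd, Cebpe, Cebpg and Spi1, and each gene was read by its probe with the highest mean signal over the 4 arrays. Of the 6 genes, 5 had a probe named by a single gene symbol, among 13840 such genes in all, and these 5 were read by 6 probes because Cebpb had a pair of them. Cebpg was not analysed here, since no probe is paired with its symbol in the annotation used.

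There were 2 arrays of Mtg16-null marrow, from female mice aged 8 to 12 weeks that had been backcrossed into C57BL/6 (N4), and 2 arrays of wild-type (WT) marrow, from C57BL/6 females of the same age. Each array was hybridised with RNA from the pooled marrow of 4 mice, after magnetic columns had removed cells bearing markers of mature lineages, and each of 2 array lots held 1 array of each genotype. A backcross of that depth can leave DNA of another strain around the targeted gene and elsewhere, and the labels do not describe the deleted part of the gene. Whether replicate arrays were made from different pools of animals is not stated, so p-values measure only the spread between these arrays, which may be technical.

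C/EBP proteins bind DNA as dimers through a basic region and a leucine zipper, and share much of their binding preference, so family members can occupy the same sites. PU.1 is an ETS-family factor that opens chromatin in myeloid and B cells, and its dose influences whether a progenitor forms granulocytes, macrophages or B cells. In the marrow C/EBPα is needed to form granulocyte-monocyte progenitors, C/EBPε to finish neutrophil maturation, and C/EBPβ for the added neutrophil output during infection. C/EBPδ is induced by inflammatory cytokines and in maturing granulocytes, and C/EBPγ lacks a strong activation domain and pairs with other leucine zipper factors.

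Promoter sequence was found for Cebpa, Cebpb and Cebpg. That of Cebpg, which has no signal here, is not printed, and its window held 2 CCAAT boxes. Cebpa and Cebpb, whose promoters are shown, have products that act early in granulocyte formation and in its emergency form. Both genes read higher in null marrow, as did Cebpd, Cebpe and Spi1, for which no promoter sequence was found. The sequences are the 250 bases before the annotated start in RefSeq, build GRCm38.p6, both on the plus strand, at chr7:35119043-35119292 for Cebpa and chr2:167688665-167688914 for Cebpb. Capitals mark matches, on either strand, to the C/EBP letters TTGCNNAA, the PU.1 letters GAGGAA, the core of the cyclic AMP response element (CRE), TGACG, the TATA box, searched as TATAAA, and the box with the letters CCAAT.
Cebpa: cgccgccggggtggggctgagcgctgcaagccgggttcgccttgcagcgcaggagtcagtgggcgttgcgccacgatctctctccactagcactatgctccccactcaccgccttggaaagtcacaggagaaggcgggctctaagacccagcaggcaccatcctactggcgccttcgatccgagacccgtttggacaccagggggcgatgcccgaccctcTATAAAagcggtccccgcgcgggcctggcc
Cebpb: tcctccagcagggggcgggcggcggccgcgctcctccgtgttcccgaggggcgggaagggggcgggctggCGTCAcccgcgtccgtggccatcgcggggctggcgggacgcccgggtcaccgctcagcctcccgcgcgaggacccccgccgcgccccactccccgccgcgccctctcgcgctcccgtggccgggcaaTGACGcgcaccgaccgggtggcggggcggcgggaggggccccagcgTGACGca
The Cebpa window held 1 match, a TATA box from 30 to 25 bases before the start, and the Cebpb window held 3 CRE cores, of which the nearest began 7 bases before the start. No 2 of these matches overlapped. Of 32851 RefSeq promoter windows of the same length, 12.4% held the TATA letters and 17.8% the CRE core, against 9.56% for the C/EBP letters, 23.3% for the PU.1 letters and 33.8% for the CCAAT box. A match is a description of the letters and says nothing about binding in these cells. Only exact matches were marked, so a window without capitals for a factor may still hold sites that depart from these letters.

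The 5 measured genes all read higher on both null arrays than on both WT arrays, by between 1.74-fold and 3.44-fold on average. Cebpe differed most, then Spi1, Cebpb, Cebpa and Cebpd, and each gene was higher within lot 1 and within lot 2. None of the 5 passed limma's moderated test at an adjusted p under 0.05, where p-values were Benjamini-Hochberg adjusted over the 8445 genes tested, and 0.118% of all genes passed, all of them lower in null marrow. At an unadjusted p under 0.05, 4 of the 5 were higher (all but Cebpa), against 9.65% of all genes that were higher at that level. Both null arrays exceeded both WT arrays for 5 of 5 genes and for 22.6% of all genes. A difference of at least 2-fold in each lot was seen for 3 of 5 (Cebpb, Cebpe and Spi1), against 3.26% of all genes. Cebpb in lot 2 (2.01-fold) and Spi1 in lot 1 (2.04-fold) only just reached this limit. The dimmer Cebpb probe, at 1.80-fold in lot 1, did not. The median log2 difference of the 5 genes was 1.10, against -0.02 over all 8445 genes. In these bulk samples a larger share of cells of one type and more RNA per cell cannot be told apart.

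**Figure D1:**
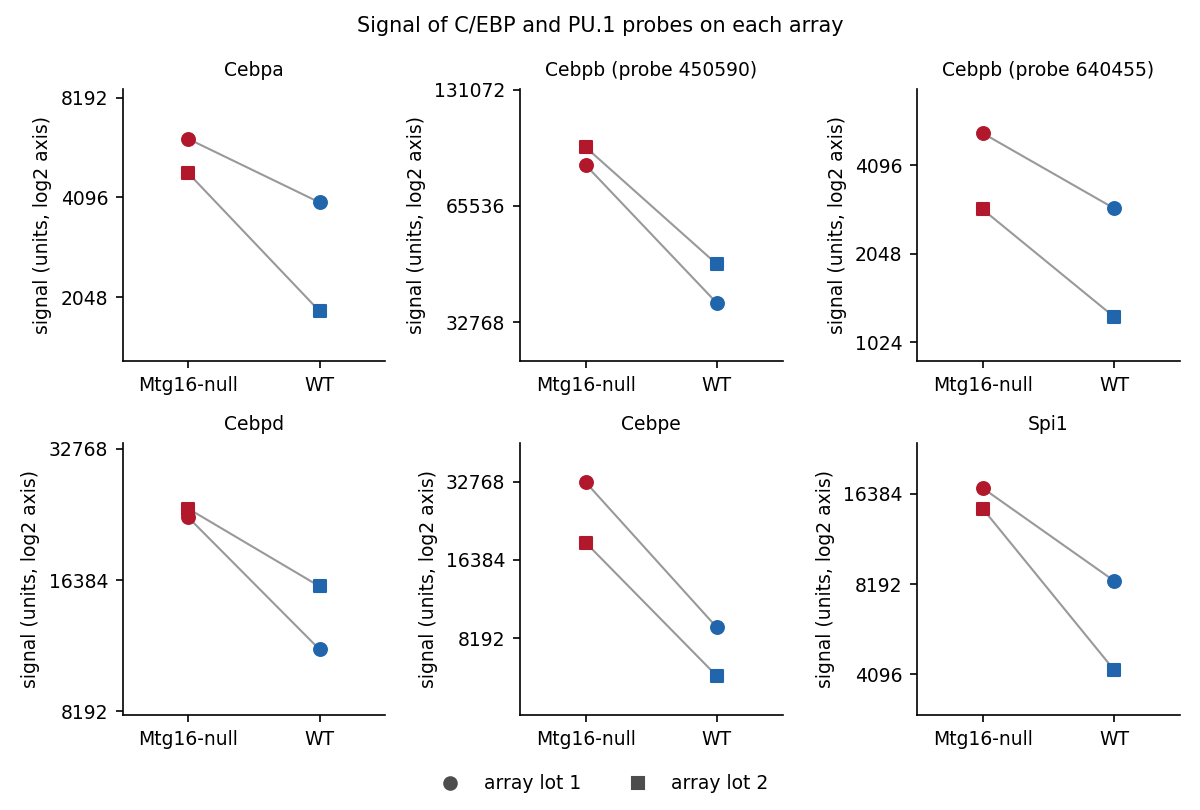
Signal of each probe (units, log2 axis) on the 2 Mtg16-null arrays (red, left) and the 2 WT arrays (blue, right), with circles for lot 1, squares for lot 2 and a grey line joining the arrays of 1 lot. Every line falls towards WT, and the Cebpb probe 640455 is the single panel in which a null array (2895 units, lot 2) lies under a WT array (2922 units, lot 1).

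Cebpa encodes the factor that starts the granulocyte programme and holds back progenitor division. Its probe (452657) read 6146 units in lot 1 and 4846 in lot 2 on the null arrays, against 3955 in lot 1 and 1859 in lot 2 on the WT arrays. The groups did not overlap, but the lower null array exceeded the higher WT array by only 1.23-fold. The mean log2 difference was 1.01 (SE 0.43, 95% interval -0.17 to 2.19, limma adjusted p = 0.373), or 2.01-fold. With the lot as a block the Cebpa interval was 0.17 to 1.85 (limma adjusted p = 0.169, 1 residual degree of freedom). Lot 1 gave a difference of 0.64 and lot 2 one of 1.38, and the WT arrays alone differed between lots by -1.09, a gap wider than the mean genotype difference. With either WT array left out the Cebpa difference moved by over 1.5 times, to 0.46 without WT array 2 and 1.55 without WT array 1.

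Spi1 showed the same arrangement of arrays as Cebpa, with a larger difference. Its probe (909012) gave 17083 units in lot 1 and 14587 in lot 2 for null marrow, against 8395 and 4237 for WT marrow in the same lots. Null and WT signals were separated by 1.74-fold at their closest. The mean log2 difference was 1.40 (SE 0.39, 95% interval 0.33 to 2.47, limma adjusted p = 0.220), or 2.65-fold. As for Cebpa, the difference was smaller in lot 1 (1.03) than in lot 2 (1.78), and from lot 1 to lot 2 the null arrays differed by -0.23 and the WT arrays by -0.99 on the log2 scale. Without WT array 2 the Spi1 difference was 0.91, and without WT array 1 it was 1.90. With 1 array per genotype in each lot, whether the genotype difference itself varies with the lot was not tested.

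Cebpe, whose product drives the last steps of neutrophil maturation, had the largest difference of the 5. On the null arrays its probe (697907) read 32618 units in lot 1 and 19103 in lot 2, against 8999 and 5851 on the WT arrays. Lot 2 read lower than lot 1 in both genotypes, by a log2 difference of -0.77 in null and -0.62 in WT marrow, and the lower null array was still 2.12-fold above the higher WT array. The difference was 1.86 for lot 1 and 1.71 for lot 2. The mean log2 difference was 1.78 (SE 0.38, 95% interval 0.73 to 2.83, limma adjusted p = 0.145), or 3.44-fold, at rank 67 of 8445 genes from the highest. Within-lot values had a smaller error: with the lot as a block the standard error of the Cebpe difference was 0.12 and its interval 1.37 to 2.19, while its adjusted p was 0.113 and the block left 1 residual degree of freedom.

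Cebpb encodes the factor used when neutrophil output is raised, and was read by a pair of probes. The brighter (450590) gave 83702 units in lot 1 and 93080 in lot 2 for null marrow, against 36733 and 46306 for WT marrow. All null signals were at least 1.81-fold above all WT signals, and both genotypes read slightly higher in lot 2. The mean log2 difference was 1.10 (SE 0.21, 95% interval 0.52 to 1.67, limma adjusted p = 0.125), with 1.19 in lot 1 and 1.01 in lot 2. This was the smallest standard error among the 5 genes in the fit without the lot.

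The dimmer Cebpb probe (640455) read 5258 units in lot 1 and 2895 in lot 2 on null arrays, against 2922 in lot 1 and 1249 in lot 2 on WT arrays. Here the groups overlapped slightly, since the null array of lot 2 read below the WT array of lot 1. Its mean difference of 1.03 was close to that of the brighter probe, at 0.85 in lot 1 and 1.21 in lot 2, but its error was larger (SE 0.56, limma adjusted p = 0.550 over the 16506 kept probes). The probes of Cebpb gave like differences between genotypes and opposite ones between lots: lot 2 minus lot 1 was 0.15 in null and 0.33 in WT marrow for the brighter probe, and -0.86 in null and -1.23 in WT marrow for the dimmer.

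Cebpd, the family member induced by inflammatory cytokines, differed least. Its probe (482989) read 22803 units in lot 1 and 23877 in lot 2 on null arrays, against 11362 and 15850 on WT arrays. The null arrays were nearly level and the WT arrays further apart, without overlap between genotypes. The mean log2 difference was 0.80 (SE 0.24, 95% interval 0.15 to 1.45, limma adjusted p = 0.238), or 1.74-fold, with 1.00 in lot 1 and 0.59 in lot 2.

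**Figure D2:**
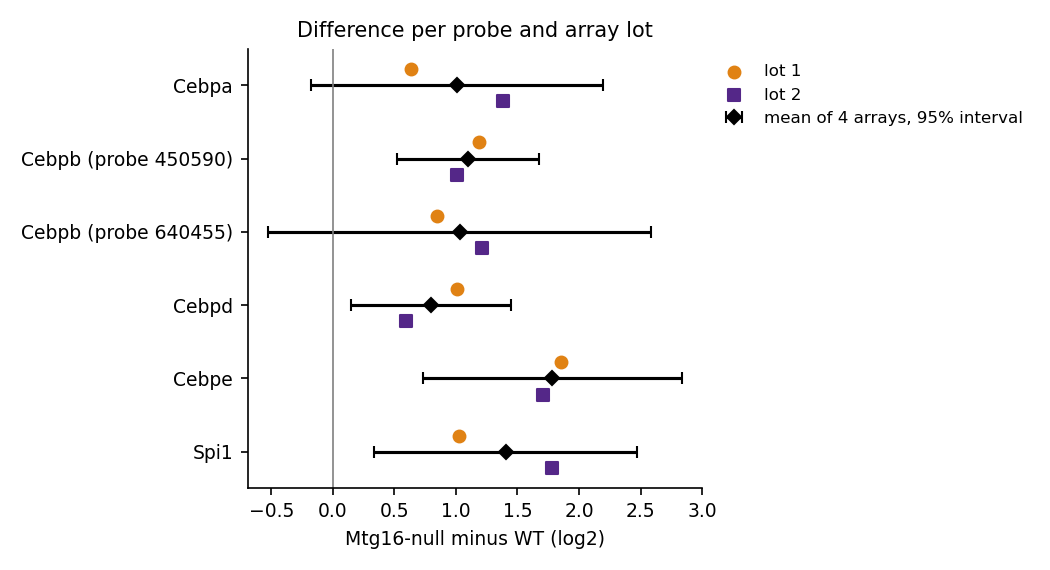
Log2 difference of Mtg16-null minus WT for each probe, with lot 1 (orange circle), lot 2 (purple square) and the mean over 4 arrays with its 95% interval from limma without the lot (black). All 12 within-lot points lie above 0, and the intervals of Cebpa and of Cebpb probe 640455 include 0.

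The 5 genes shared the direction of the genotype difference but not that of the lot difference, where lot and replicate pool, if pools differed, cannot be told apart. Cebpa, Cebpe and Spi1 read lower in lot 2 than in lot 1 in both genotypes, while Cebpd and the brighter Cebpb probe read higher in lot 2 in both. Over all tested genes the median absolute difference between lots was 0.24 in null and 0.34 in WT marrow, and the null value of Cebpe (-0.77), the WT values of Cebpa (-1.09), Spi1 (-0.99) and Cebpe (-0.62) and both values of the dimmer Cebpb probe were larger in size than those medians. The WT value of Cebpd (0.48) and the null value of Cebpa (-0.34) were also larger in size than the medians, but nearer to them. With the lot as a block, 5 of 5 genes had an unadjusted p under 0.05 and were higher, against 13.3% of all genes, and 0 of 5 passed the adjusted threshold, which 0% of all genes passed. Other settings of the fit moved calls: with only the brightest 25% of probes, Cebpb and Cebpe passed as higher (3.87% of all genes there), and with a variance trend Cebpb passed (2.14% of all genes). The adjusted p-values with the block were 0.169 for Cebpa, 0.113 for Cebpb and for Cebpe, 0.145 for Cebpd and 0.132 for Spi1.

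In the distribution of differences over all genes, Cebpe lay at percentile 99.2, Spi1 at 98.0, Cebpb at 95.3, Cebpa at 94.3 and Cebpd at 91.0. Over all genes the 5th percentile of the log2 difference was -0.87 and the 95th was 1.07, so Cebpe, Spi1 and Cebpb lay above the upper of these limits and Cebpa and Cebpd within them. Whether the 5 differences differ from each other was not tested, and their 95% intervals in the fit without the lot share the range from 0.73 to 1.45.

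**Figure D3:**
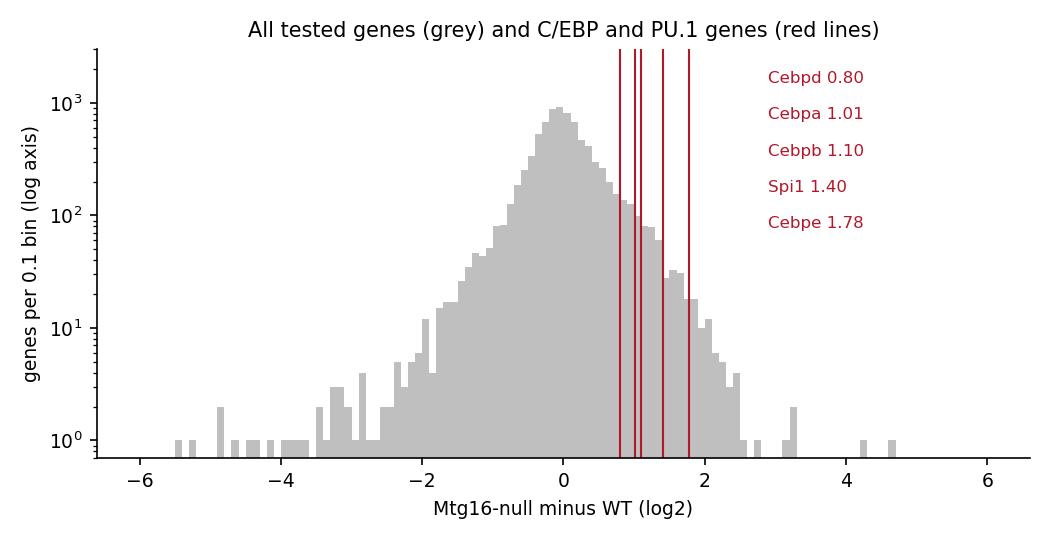
Number of genes (log axis) per 0.1 of log2 difference, Mtg16-null minus WT, for the 8445 tested genes (grey), with red lines at the 5 C/EBP and PU.1 genes. The lines run from 0.80 (Cebpd) to 1.78 (Cebpe), on the upper side of a distribution centred at -0.02.

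Patterns over the 4 arrays were compared by the root mean square distance between log2 signals, after each gene was centred on its own mean. Among the factors themselves Cebpb and Cebpd were closest (0.16), followed by Cebpa and Spi1 (0.20) and by Cebpe and Spi1 (0.30), and Cebpd and Cebpe were farthest apart (0.69). Closest to Cebpa among all tested genes were Tpm3 and Igfbp4, each at a distance of 0.08. Tnfaip8 (0.01) and Ppp1r3b (0.03) lay closest to Cebpb, Pdlim4 (0.02) and Dhrs7 (0.03) to Cebpd, Gpt2 (0.13) and B3gnt8 (0.16) to Cebpe, and Mogat2 (0.03) and Gstm1 (0.08) to Spi1. The Tnfaip8 signals, for example, were 48756 and 54944 units on null arrays and 21429 and 27284 on WT arrays, the same spacing as for the brighter Cebpb probe. The Gpt2 signal of WT array 2 was 224 units, as dim as the probes of Y-linked genes on these arrays. Each distance rests on 4 arrays and is a description.

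The tissue and labels were checked on the same arrays. The probe of Cbfa2t3, the symbol of the targeted gene Mtg16, read 95520 and 118572 units on null arrays and 80854 and 100256 on WT arrays, a log2 difference of 0.24. Where this probe lies with respect to the deletion is not known from the files, so it does not check the labels. Every signal of the factor probes (1249 to 93080 units) was above the 94.5 to 310 units of 3 Y-linked genes in these female mice. Among progenitor markers Kit read 34022 and 41866 units on null arrays and 39213 and 47408 on WT arrays (log2 difference -0.19), while Cd34 (1.48) and Slamf1 (1.94) were at least 2-fold higher in each lot. Among T cell markers Cd3e read 164 to 261 units on null arrays and 120 to 325 on WT arrays, Cd3d 200 to 649 on null and 181 to 825 on WT arrays, and Cd3g 523 to 601 on null and 489 to 739 on WT arrays, so part of these signals lay above the Y-linked range.

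Neutrophils and monocytes express these factors, and the markers of both differed between the same arrays. Of the kept late neutrophil markers, 10 of 10 were lower in both lots, with a summed signal of 144275 to 154609 units on null arrays and 1335943 to 1451276 on WT arrays. S100a9 and S100a8 were the brightest of them, with WT means of 808276 and 245371 units. Of the kept monocyte and macrophage markers, 4 of 4 were higher in both lots, with sums of 88274 to 94088 on null arrays and 41352 to 47286 on WT arrays. Erythroid markers were lower in both lots in 7 of 7 cases (514992 to 584644 units on null arrays, 781318 to 934402 on WT arrays). Stem and progenitor markers were higher in both lots in 3 of 6 cases and lower in 2 (132933 to 140909 units on null arrays, 107202 to 114906 on WT arrays). Of these sums Cd34 gave 42939 and 41215 units on null arrays and 16790 and 13518 on WT arrays. Kit (-0.19) and Gata2 (-0.01), the other bright markers, were not higher, so the higher null sums rest on Cd34. Of the kept markers in other lists, 4 of 5 megakaryocyte markers were higher in both lots and 1 lower. B lineage markers were higher in 4 of 4 cases. Of 3 kept T and natural killer markers, the natural killer genes Ncr1 (0.86) and Klrb1c (1.41) were higher, and Cd3g had opposite signs. Of 4 kept stromal and endothelial markers, 3 were higher and 1 lower. Over all genes 33.6% were higher and 36.8% lower in both lots. The filter on dim probes left out Ms4a1 (-3.94) and Pax5 (0.39) of the B lineage. Ms4a1 read 68 and 143 units on null arrays and 1444 and 1767 on WT arrays. Also left out were Cd3e (0.07), Cd3d (-0.10), Cd4 (-0.56) and the stromal list's Cdh5 (-1.37) and Lepr (-0.36). The same filter removed the monocyte and macrophage markers Adgre1 (0.68) and Mrc1 (0.23) and the eosinophil marker Il5ra (2.50). Il5ra read 1465 and 540 units on null arrays and 216 and 115 on WT arrays. Of 6 kept eosinophil, basophil and mast cell markers, the eosinophil genes Prg2 (2.13) and Epx (1.88) were higher and Mcpt8, Cpa3, Fcer1a and Ms4a2 (-0.69 to -0.55) lower. The lowest signal of any kept late neutrophil marker was 276 units (Mmp9, null array 2). The part of these cell types in the higher C/EBP and PU.1 signals was not tested.

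Genes that act with or against the factors lay on both sides of 0. Of 28 listed partners and antagonists, 20 were tested, with 8 higher and 8 lower in both lots (33.6% and 36.8% of all genes), a median log2 difference of -0.11 and 0 past limma's adjusted threshold. At an unadjusted p under 0.05, 4 were higher and 5 lower, against 9.65% and 6.83% of all genes. Gfi1, the repressor that works with C/EBPε in neutrophil formation, read 19566 and 20320 units on null arrays and 4364 and 5831 on WT arrays (log2 difference 1.98). Id1, an inhibitor of helix-loop-helix factors, and Cbfb, the partner subunit of Runx1, had differences of 1.17 and 1.06. At the other end stood Klf5, a zinc finger factor of granulocytes (-2.21, with 764 and 1036 units on null arrays and 3960 and 4260 on WT arrays), Trib2, which promotes breakdown of C/EBPα protein (-0.96), and Gata1, the erythroid factor that opposes PU.1 (-0.75). Among other ETS factors, relatives of PU.1, 10 of 17 were tested, with 0 past limma's threshold and a median of 0.22. At an unadjusted p under 0.05, 2 of these were higher and 0 lower, against 9.65% and 6.83% of all genes. The highest were Elk3 (1.10), Fli1 (0.98) and Elf1 (0.53) and the lowest Gabpa (-0.19), Elk4 (-0.13) and Elf2 (0.04). The Spi1 difference of 1.40 lay above all 10 of these, although whether it differed from them was not tested. Erg, left out by the filter on dim probes, had a log2 difference of 1.42. It read 960 and 432 units on null arrays and 187 and 311 on WT arrays. The filter also left out Elf4 (0.88), Elk1 (-0.36), Spic (-0.61) and Ets1 (-0.75).

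Genes known for C/EBP control in granulocytes were taken as a promyelocyte and a later neutrophil list, and the lists were not tested against each other. The later list shares Ltf, Camp, Ngp, Lcn2, Mmp8, Mmp9 and Cd177 with the late neutrophil markers above. Its counts and those of the markers are therefore not separate observations. Of 10 promyelocyte and receptor genes, all tested, 8 were higher in both lots (33.6% of all genes) and 2 had opposite signs in the lots. At least 2-fold higher in each lot were 7 of the 10 (3.26% of all genes). The median difference of the 10 was 1.72, with 0 past limma's adjusted threshold. At an unadjusted p under 0.05, 7 were higher and 0 lower, against 9.65% and 6.83% of all genes. The list was led by Elane (2.23), Ms4a3 (2.21) and Il6ra (1.91), which encode neutrophil elastase, a progenitor membrane protein and the interleukin-6 receptor. Il6ra was dim on WT arrays, at 504 and 315 units, of which the lower lay near the top of the Y-linked range. Lyz2 (0.03), lysozyme, Csf3r (0.05), the granulocyte colony-stimulating factor receptor and a target of C/EBPα and PU.1, and Mpo (0.40), myeloperoxidase, were at the low end. Of 11 later neutrophil genes, 10 were tested, of which 5 fell past the adjusted threshold in the fit without the lot (0.118% of all genes). By at least 2-fold in each lot, 8 were lower (2.19% of all genes) and 2 were higher (3.26% of all genes). The 5 past the threshold were Ltf (-5.41), Ngp (-4.87), Camp (-4.40), Cd177 (-3.97) and Chil3 (-3.15), most of them granule or secreted products. With the lot as a block 0 of them passed. Cebpe, needed for such granule genes, read 3.44-fold higher in the same null marrow in which Ltf read 356 and 440 units, against 17026 and 16569 units in WT marrow. Slpi (1.67) and Hp (1.35), which encode a protease inhibitor and haptoglobin, had positive differences, and Mmp9, whose null signal of lot 2 lay in the Y-linked range, had a difference of -2.83.

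Of 16 genes linked with PU.1, 11 were tested, with 7 higher and 0 lower in both lots (33.6% and 36.8% of all genes). The median of the 11 was 0.38, with 0 past limma's threshold. At an unadjusted p under 0.05, 3 were higher and 0 lower, against 9.65% and 6.83% of all genes. Cd14 (1.58), a monocyte receptor with 2.67 in lot 1, where its WT signal of 160 units lay in the Y-linked range, and 0.50 in lot 2, and the NADPH oxidase subunits Ncf4 (1.16) and Ncf1 (1.04) were highest. Itgam, the integrin CD11b, had lot differences of -1.04 and 0.95 that cancelled to -0.05, and Cybb and Csf2rb stood at -0.02 and 0.07. Of 11 genes of cytokine signalling, 9 were tested, with 4 higher and 4 lower in both lots (33.6% and 36.8% of all genes). The median of the 9 was -0.13, with 0 past limma's threshold. At an unadjusted p under 0.05, 3 were higher and 1 lower, against 9.65% and 6.83% of all genes. Socs3 (1.15), Stat3 (0.94) and Il6st (0.74), parts of the interleukin-6 and granulocyte colony-stimulating factor pathway that induces Cebpb and Cebpd, were highest, and Il1b (-0.89), Jak1 (-0.70) and Stat5b (-0.26) lowest.

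**Figure D4:**
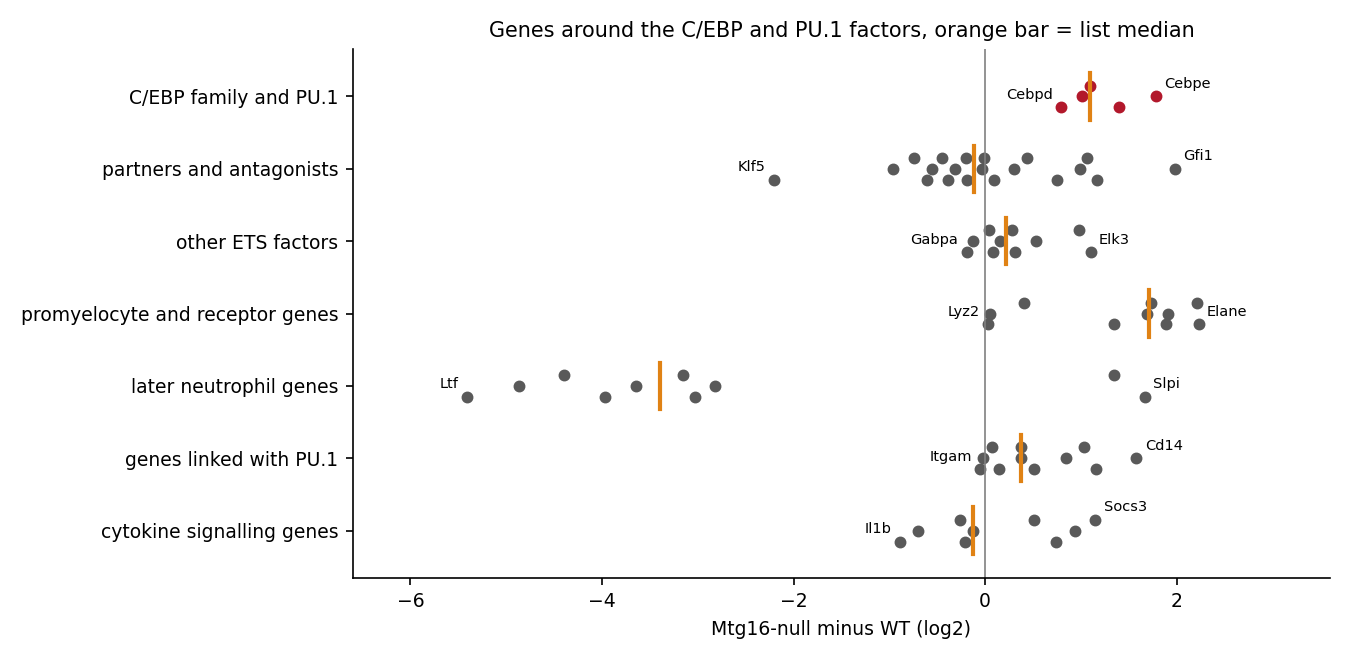
Log2 difference of Mtg16-null minus WT for the tested genes of each list, 1 point per gene, with the C/EBP and PU.1 genes in red, an orange bar at each list's median and the lowest and highest gene named. The factors lie between 0.80 and 1.78, the promyelocyte genes reach 2.23 and the later neutrophil genes reach down to -5.41.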

How the data were processed

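The deposited values were probe intensity on a linear scale for 33012 probes, from single-colour Applied Biosystems arrays hybridised with digoxigenin-labelled cRNA, per the labels' protocols. The values show that the authors had quantile normalized the intensity: once sorted, the arrays matched to within 0.286%, with a median of 470 units on each. None of the sources used here names the scanner, a background subtraction or a probe filter. Precision is limited by there being 4 arrays.

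Gene names came from the annotation of the platform (14411 with 1 symbol, 247 with several, 18354 with none). Of the 14411, 14402 matched a RefSeq gene identifier (GRCm38.p6), which changed 0 symbols. Signals under the 1st percentile (75.8 units) were raised to it before taking log2. Kept were the 50% of probes with the higher mean log2 signal (16506), with the brightest probe of each gene, giving 8445 genes, and all 5 measured factors passed this filter. Null minus WT was fitted by limma 3.58.1, run in R 4.3.3 (lmFit, eBayes, genotype only, two-sided, 2 residual and 2.11 prior degrees of freedom). Benjamini-Hochberg adjustment ran over all genes, with a threshold of 0.05. The fit was tested on simulated data. Plots used matplotlib 3.10.9 (Python 3.11.15).

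The series text says that the replicate number is the array lot, so the lot pairs the arrays. Deviations of same-lot arrays from their group means correlated over genes (Pearson r = 0.50, 8445 genes). The alternatives were the lot as a block, other filters on dim probes, cyclic loess, no floor, a variance trend, the mean of a gene's probes and each array left out.

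The named genes were the 6 factors, the 2 genes nearest to each in pattern, the 3 highest and 3 lowest tested genes of each of 6 lists around the factors, and members of those lists past the adjusted threshold. ETS factors left out by the filter on dim probes, and markers given singly outside these rules, were chosen after their values were seen. The members and lists were chosen with earlier results of these data known.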

Additional observations from a re-analysis of the deposited data

How the results depend on the processing

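The 5 factors kept a positive difference under all 11 alternatives, and 52 of 55 values stayed on the same side of the adjusted threshold. The exceptions were Cebpb with the brightest 25% of probes (log2 difference 1.10, limma adjusted p = 0.0353, with 3.87% of 4967 genes called higher) and with a variance trend (1.10, adjusted p = 0.0353, with 2.14% of genes called higher), and Cebpe with the brightest 25% (1.78, adjusted p = 0.0479). The adjusted p ran from 0.0353 to 0.549 for Cebpb and from 0.0479 to 0.539 for Cebpe over the alternatives, and from 0.169 to 0.849 for Cebpa, 0.106 to 0.732 for Cebpd and 0.0924 to 0.665 for Spi1. With 1 array left out, the difference ran from 0.46 to 1.55 for Cebpa, 0.93 to 1.26 for Cebpb, 0.56 to 1.04 for Cebpd, 1.40 to 2.17 for Cebpe and 0.91 to 1.90 for Spi1, where the lone array of a group is assumed to vary like the other group. The count of genes past the threshold was 10, against 0 with the lot as a replicate block, 0 when dim probes were kept in, 295 for the brightest 25% and 295 with the variance trend. With any 1 array left out limma called 0 genes. The fits with 0 calls had 2054 (block), 1512 (dim probes kept) and 680 to 1438 (an array left out) genes whose unadjusted p was under 0.05. The block changed no call on the 5 factors. The cause of these changes was not tested. No detection calls were used, so the lower limit of signal rests on the Y-linked probes.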
